A study of Homo sapiens with 18 samples.

Results

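The genes described here are the cadherins and the non-clustered protocadherins, 43 of the 28063 genes listed in each file. The rule takes them by symbol: the numbered CDH genes, 11 protocadherins outside the clustered loci, FAT1 to FAT4, DCHS1 and DCHS2, and CELSR1 to CELSR3. By role these are 5 type I and 13 type II cadherins, the GPI-anchored CDH13, 4 other cadherins, 9 delta protocadherins, 2 other protocadherins, 6 FAT and DCHS genes and 3 CELSR genes. The study measured RNA made within a 2 h window of 500 uM 4-thiouridine (4sU) in human neuroblastoma lines, with 2 libraries a group. Unedited cells of 3 lines, KELLY, SK-N-DZ and IMR-32, were given 1 uM BRM014, which inhibits SMARCA4 and SMARCA2, the ATPases of SWI/SNF chromatin remodellers, or DMSO. IMR-32 cells engineered to carry SMARCA4-mAID, an auxin-inducible degron, were given 500 uM auxin or ethanol. A further pair of KELLY libraries was left without 4sU. The sources used here do not give how long the cells had been exposed to BRM014 or auxin, or whether the engineered line is a single clone.

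Cadherins are calcium-dependent adhesion proteins whose extracellular repeats bind those of neighbouring cells. Type I and type II cadherins link to actin through catenins. The cytoplasmic tails of some delta protocadherins recruit phosphatase or WAVE complex proteins. The FAT, DCHS and CELSR giants take part in planar cell polarity. In the nervous system, and in the sympathetic lineage from which neuroblastoma arises, cells carry combinations of these proteins that contribute to cell sorting, migration, axon growth and synapse formation, with CDH2 (N-cadherin) as the most general member.

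Labelled libraries held between 724913 and 1740475 counts in genes. The BRM014 libraries were the shallower ones in IMR-32 (741970 and 775064, against 1438139 and 1148208 with DMSO) and in SK-N-DZ (724913 and 758288, against 1589230 and 1740475 with DMSO), and the part of depth in the results for those lines was not tested beyond the alternatives given at the end. Adrenergic neuroblastoma markers were detected in every group, 10 to 13 of 13, with DBH, TH and DDC at 0 in IMR-32 BRM014 libraries, DBH and TH at 0 in both SMARCA4-mAID groups and TH at 0 in SK-N-DZ BRM014 libraries. Summed endothelial, leukocyte, Schwann lineage and epithelial markers reached at most 12.1 CPM (library-scaled counts, per 1e6) in any library. BRM014 and the degron act on the protein, so the SMARCA4 transcript is no check of either. SMARCA4 had 887 and 942 counts in auxin libraries, 1091 and 1379 in ethanol libraries and 55 to 274 in the libraries of the unedited lines.

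Of the 43 genes, 24 had enough counts to be tested. The 19 others never exceeded 11 counts in a labelled library, and 5 of them, CDH1 (E-cadherin), CDH9, CDH15, CDH16 and CDH19, had no count in any. A count of 0 allows a level of up to 1.72 CPM in the deepest and 4.14 CPM in the shallowest labelled library, counting error only. A gene that is high in a single group could pass this filter through that group alone, so the 24 do not stand for all 43. In the unlabelled KELLY libraries the 43 genes together had 11 counts, against 3154 in the labelled KELLY DMSO libraries, or 0.349%. The same share over all genes was 0.348%. Only CDH2 (2 and 4 counts), FAT1 (1 and 0) and PCDH17 (3 and 1) had any unlabelled count, and the other 40 genes had none.

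**Figure D1:**
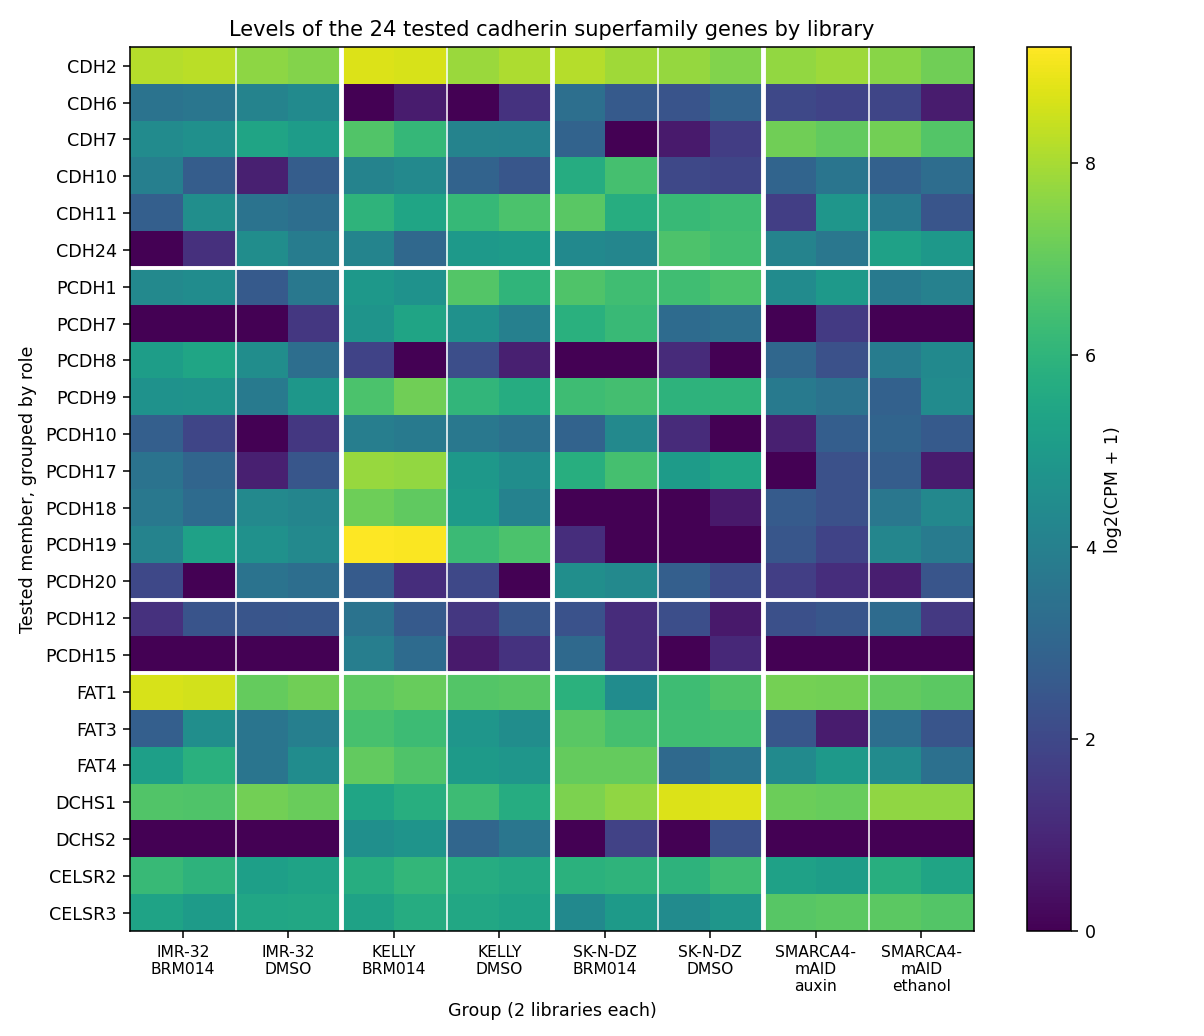
Level of each of the 24 tested genes, as log2(CPM + 1), in the 16 labelled libraries, 2 a group, with each treated group to the left of its vehicle group. CDH2 is bright in every library, whereas PCDH19, PCDH18 and PCDH17 are brightest in KELLY BRM014 libraries and DCHS1 in SK-N-DZ DMSO libraries.

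In KELLY cells 3 delta protocadherin genes on 3 chromosomes, PCDH17, PCDH18 and PCDH19, had the highest called fold changes with BRM014, while PCDH1, another delta protocadherin, fell. Their promoters are shown because these genes moved together or apart under 1 agent. Their promoter windows are printed from 250 bases before to 50 bases after the start, 5′ to 3′ on the gene's strand, as RefSeq gives them on GRCh38.p14. Capitals mark a match to 1 of 5 motifs searched on both strands, and positions count from the start base as 0. RefSeq entries were at hand for 26 of the 43 genes.
PCDH17, chr13:57631494-57631793, plus strand: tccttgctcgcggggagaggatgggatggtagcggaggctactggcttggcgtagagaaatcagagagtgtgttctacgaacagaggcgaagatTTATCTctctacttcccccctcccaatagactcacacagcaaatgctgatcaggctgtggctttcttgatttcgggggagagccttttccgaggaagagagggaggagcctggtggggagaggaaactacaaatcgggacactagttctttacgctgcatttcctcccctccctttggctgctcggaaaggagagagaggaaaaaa
PCDH18, chr4:137532445-137532744, minus strand: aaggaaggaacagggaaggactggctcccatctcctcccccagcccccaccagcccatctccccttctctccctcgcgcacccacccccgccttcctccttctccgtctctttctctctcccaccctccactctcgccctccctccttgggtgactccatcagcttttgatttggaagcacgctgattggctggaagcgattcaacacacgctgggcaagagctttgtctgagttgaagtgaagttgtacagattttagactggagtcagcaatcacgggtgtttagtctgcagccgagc
PCDH19, chrX:100410224-100410523, minus strand: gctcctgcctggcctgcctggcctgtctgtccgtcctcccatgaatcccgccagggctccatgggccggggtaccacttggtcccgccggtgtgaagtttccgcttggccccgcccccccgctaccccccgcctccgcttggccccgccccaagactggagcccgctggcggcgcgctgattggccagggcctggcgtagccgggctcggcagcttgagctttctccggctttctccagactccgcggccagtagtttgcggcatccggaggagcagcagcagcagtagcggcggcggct
PCDH1, chr5:141869578-141869877, minus strand: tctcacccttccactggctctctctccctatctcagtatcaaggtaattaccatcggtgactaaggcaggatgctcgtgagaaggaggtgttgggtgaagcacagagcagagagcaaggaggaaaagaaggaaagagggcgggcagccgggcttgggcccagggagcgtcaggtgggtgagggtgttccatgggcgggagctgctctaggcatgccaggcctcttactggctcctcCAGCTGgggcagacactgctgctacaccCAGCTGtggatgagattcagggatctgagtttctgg
The window of PCDH1 begins from a start inside the annotated gene. GC content was 52.7% for PCDH17, 57.0% for PCDH18, 71.0% for PCDH19 and 58.0% for PCDH1, against a median of 58.67% over 35116 promoter windows. CpG pairs numbered 11 in PCDH17, 10 in PCDH18, 26 in PCDH19 and 6 in PCDH1, against a median of 14. The MYC E-box CACGTG was in 7.256% of all windows. PCDH1 held the E-box CAGCTG at -14 and at 14, a motif found in 17.95% of windows. PCDH17 held the GATA motif AGATAA, on the other strand, at -156, and 10.33% of windows hold it. The AP-1 motif TGANTCA was in 7.709% of windows. The TATA box TATAAA was in 11.53%. No letters of the 5 motifs were found in the windows of PCDH18 and PCDH19. A match is a description of letters, not of a bound site.

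With BRM014, 8 of the 24 tested genes rose in KELLY cells, 2 fell and 14 were not called. The 8 and the 2 stand against 6.57% and 4.98% of all 12853 genes tested, by the quasi-likelihood test of edgeR with Benjamini-Hochberg adjustment below 0.05. The median log2 fold change was 0.86, or 0.96 without CDH6, which had at most 3 counts in each group, and the median over all genes was 0. The summed level of the 43 genes was 2255 ± 56.7 CPM with BRM014 and 1055 ± 26.2 CPM with DMSO (SD, n = 2 each). In bulk RNA, fewer cells of a type and less RNA per cell cannot be told apart.

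PCDH19, a delta protocadherin whose mutations in humans cause an epilepsy, lies at chrX:100291644-100410273 (hg38, GENCODE v29 annotation, as for all gene positions below). It had 591 and 570 CPM in KELLY BRM014 libraries, against 77.3 and 95.1 CPM in KELLY DMSO libraries. Each treated library was above each vehicle library, and the gene took 25.8% of the summed level of the 43 genes with BRM014 and 8.17% with DMSO. It rose by 2.76 (log2, as for all fold changes below; SE 0.21, adjusted p = 2.27e-20, edgeR).
PCDH17 (chr13:57631810-57729311), known in mouse for its place at corticostriatal synapses, had 222 and 209 CPM with BRM014, against 29.4 and 22.1 CPM with DMSO. Its log2 fold change of 3.05 (SE 0.33, adjusted p = 1.14e-12, edgeR) was the highest of the called genes in KELLY. PCDH18 (chr4:137518918-137532494), a delta protocadherin known to bind the adaptor DAB1 in mouse, had 144 and 124 CPM with BRM014 and 32.4 and 15.97 CPM with DMSO, a rise of 2.45 (SE 0.38, adjusted p = 2.47e-07, edgeR). The groups did not overlap for either gene. PCDH9, a very long gene at chr13:66302834-67230445 that is abundant in brain, had 96.1 and 146 CPM with BRM014 and 66.0 and 51.0 CPM with DMSO. Its rise of 1.04 (SE 0.29, adjusted p = 0.00799, edgeR) was no longer called without KELLY BRM014 replicate 2 (0.71, adjusted p = 0.242), without KELLY DMSO replicate 2 (0.88, adjusted p = 0.122) or after a trend on gene length (0.72, adjusted p = 0.103) or on length and T content (0.56, adjusted p = 0.256, edgeR) was taken out.

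Among the type I and type II cadherins in KELLY, CDH7, known from chick neural crest and spinal cord, had 105 and 69.1 CPM with BRM014 and 16.2 and 15.97 CPM with DMSO. It rose by 2.42 (SE 0.33, adjusted p = 4.70e-09, edgeR), with no overlap between groups. CDH2 (chr18:27950966-28177446), the N-cadherin of neural adherens junctions, had 425 and 401 CPM with BRM014, against 228 and 268 CPM with DMSO, and rose by 0.74 (SE 0.13, adjusted p = 1.03e-05, edgeR). Per kilobase of exon it had the highest level of the 43 genes in both groups, 92.9 CPM per kb with BRM014 and 55.9 with DMSO. PCDH19 came next with BRM014, at 59.5 CPM per kb, against 8.84 CPM per kb with DMSO.
FAT3 and FAT4, giant cadherins with roles in neuron shape and in planar polarity, rose as well. FAT4 (chr4:125316399-125492932), the binding partner of DCHS1, had 128 and 99.9 CPM with BRM014 and 31.2 and 27.4 CPM with DMSO, a log2 fold change of 1.95 (SE 0.31, adjusted p = 8.17e-07, edgeR). FAT3 had 92.1 and 78.1 CPM with BRM014 and 27.6 and 22.1 CPM with DMSO, a log2 fold change of 1.77 (SE 0.34, adjusted p = 3.61e-05, edgeR). Neither gene's groups overlapped.

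PCDH1 and CDH24 fell in KELLY. PCDH1 (chr5:141853111-141879246), a delta protocadherin best known from airway epithelium, had 28.8 and 25.0 CPM with BRM014, against 107 and 64.7 CPM with DMSO. It fell by 1.68 (log2, SE 0.31, adjusted p = 2.56e-05, edgeR), and its vehicle libraries differed from each other more than its treated ones did. CDH24 (chr14:23047062-23057538), a type II cadherin that binds catenins, had 16.99 and 7.68 CPM with BRM014 and 30.6 and 31.9 CPM with DMSO, and fell by 1.34 (SE 0.41, adjusted p = 0.0209, edgeR). The call for CDH24 was lost without KELLY BRM014 replicate 2 (-0.87, adjusted p = 0.295), KELLY DMSO replicate 1 (adjusted p = 0.0828) or KELLY DMSO replicate 2 (adjusted p = 0.0794), and after a trend on gene length and T content (-0.93, adjusted p = 0.164, edgeR), and without KELLY BRM014 replicate 1 its log2 change was -2.01.
The other tested genes did not pass in KELLY. PCDH15, a partner of CDH23 in the hair cell tip link, had 22 and 13 counts with BRM014, against 1 and 2 with DMSO, a ratio of 11.3 (exact binomial 95% interval 3.55 to 57.2), and its adjusted p was 0.0836 (edgeR). DCHS2 had 35 and 41 counts with BRM014 and 12 and 15 with DMSO (1.40, adjusted p = 0.344). In a fit of the 4 KELLY libraries alone both would be called, PCDH15 with an adjusted p of 0.0198 and DCHS2 with 0.0489 (edgeR). CDH11, a type II cadherin of mesenchyme, had 62.7 and 41.6 CPM with BRM014 and 71.3 and 96.6 CPM with DMSO (-0.68, adjusted p = 0.224, edgeR). CDH13, which lacks a cytoplasmic tail, was below the test's filter with 0 and 2 counts with BRM014 and 10 and 7 with DMSO, 8.81-fold fewer with BRM014 per library size (exact 95% interval 2.09 to 78.6, counting error only).
The summed level of 12 mesenchymal markers was 529.9 and 568 CPM in KELLY BRM014 libraries and 243 and 278 CPM in KELLY DMSO libraries, and TWIST1 made up most of that difference, at a mean of 436 CPM with BRM014 and 165 CPM with DMSO. FN1 averaged 50.7 CPM with BRM014 and 28.3 CPM with DMSO, CD44 15.5 and 5.22 CPM, PDGFRB 32.3 and 49.6 CPM and PDGFRA 7.43 and 8.16 CPM, while VIM (2.24 CPM with BRM014, 0 with DMSO) and SNAI2 (4.53 and 2.42 CPM) were low. Of these markers 7 were detected with BRM014 and 8 with DMSO, and PRRX1, COL1A1, COL1A2, COL3A1 and YAP1 were at 0 with BRM014. The summed level of the 13 adrenergic markers was 5829.6 and 5864 CPM with BRM014 and 6017 and 6228 CPM with DMSO. In the other lines the mesenchymal sum was 520 to 551 CPM with BRM014 and 704 to 760 CPM with DMSO in IMR-32, 446 to 522 CPM with BRM014 and 426 to 428 CPM with DMSO in SK-N-DZ, and 663 to 706 CPM with auxin and 567 to 630.1 CPM with ethanol in SMARCA4-mAID cells. The part of either marker set in the results was not tested.

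**Figure D2:**
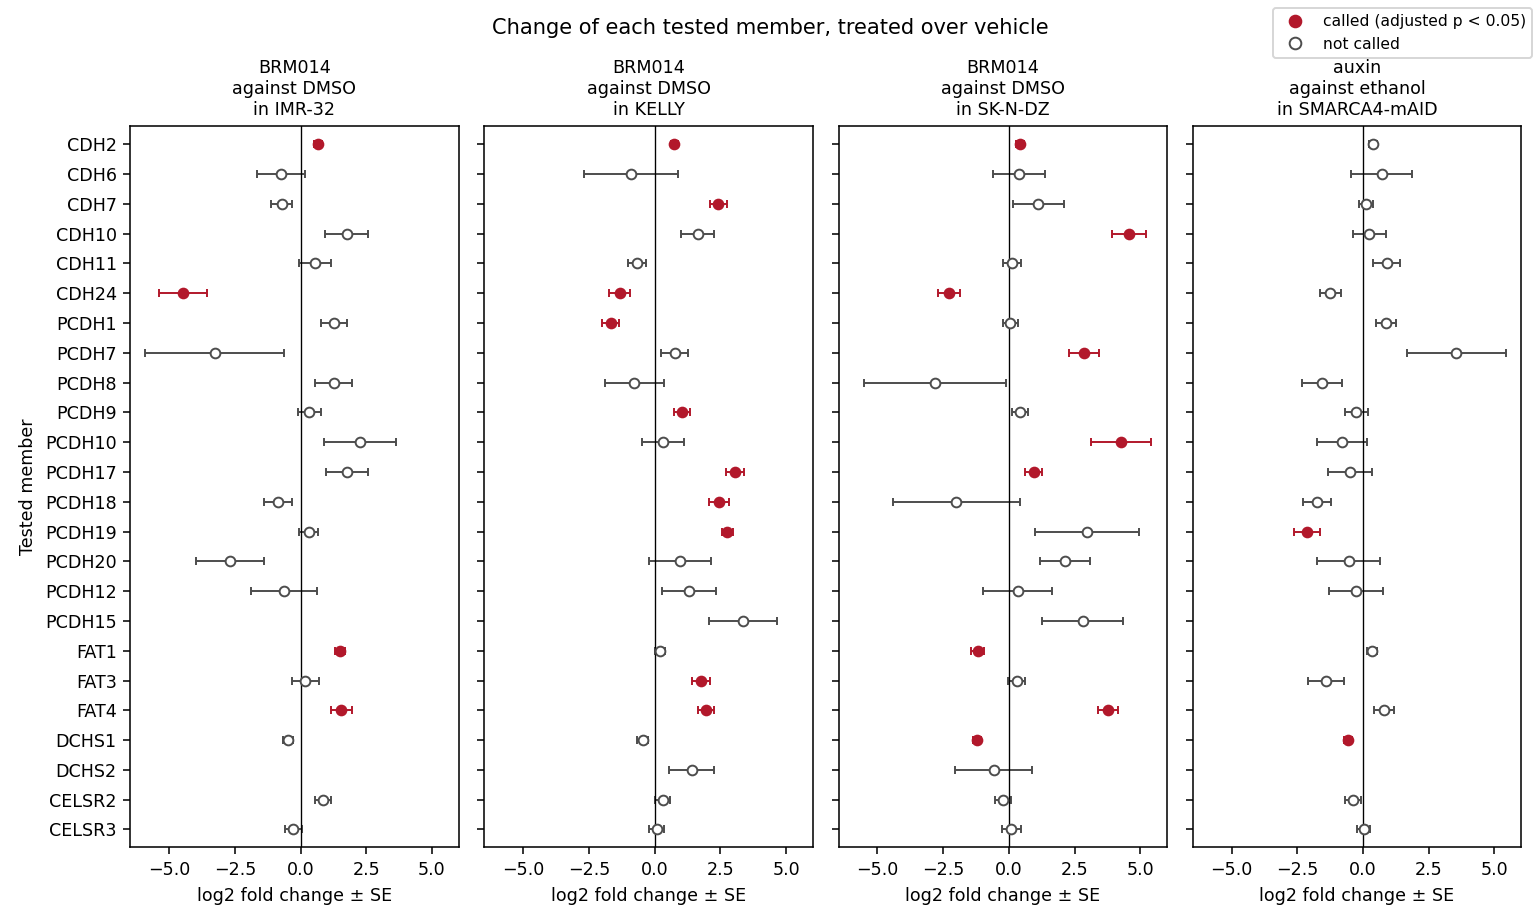
Log2 fold change with its standard error for the 24 tested genes (rows, by role) in the 4 treatment comparisons (columns), treated over vehicle; filled points were called at an adjusted p below 0.05. KELLY has 8 filled points to the right and SMARCA4-mAID none, and genes with wide bars rest on few counts, so their fitted values are not to be read as folds.

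In SK-N-DZ, 6 of the 24 genes rose and 3 fell with BRM014, against 9.88% and 9.55% of all genes tested. The median log2 fold change was 0.37, against -0.04 over all genes. It was 0.39 without PCDH8, PCDH18 and PCDH19, which had at most 3 counts in each group. The median of all 24 was 0.05 without SK-N-DZ BRM014 replicate 1 and 0.55 without replicate 2. The summed level was 1353 ± 41.6 CPM with BRM014 and 1296 ± 25.9 CPM with DMSO (SD, n = 2 each), so higher and lower genes nearly balanced.
FAT4 had 132 and 129 CPM in SK-N-DZ BRM014 libraries, against 7.79 and 11.02 CPM in SK-N-DZ DMSO libraries. Its log2 fold change of 3.77 (SE 0.37, adjusted p = 1.43e-14, edgeR) was larger than in the other lines, and the size of its response differed among the 3 lines (adjusted p = 0.00392). Its partner DCHS1 (chr11:6621323-6655854) moved the other way. DCHS1 had 167 and 205 CPM with BRM014 and 426 and 432 CPM with DMSO, and fell by 1.20 (SE 0.16, adjusted p = 3.39e-09, edgeR). The fall of DCHS1 was 0.65 (-0.65, adjusted p = 0.00131) after a trend on gene length and T content was taken out. FAT1 (chr4:186587783-186726722) had 58.5 and 21.5 CPM with BRM014 and 79.7 and 101 CPM with DMSO, and fell by 1.19 (SE 0.24, adjusted p = 9.65e-05, edgeR). Without SK-N-DZ BRM014 replicate 2, the lower library, FAT1 was at -0.63 with an adjusted p of 0.1105 (edgeR), and without replicate 1 it was at -2.07.

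CDH10, a type II cadherin of the brain, had 50.5 and 89.7 CPM with BRM014 and 2.99 and 2.75 CPM with DMSO. It rose by 4.57 (SE 0.66, adjusted p = 3.37e-08, edgeR) and so became the second gene per kilobase of exon in SK-N-DZ BRM014 libraries, at 20.4 CPM per kb after CDH2 at 58.8. CDH10 had 16.3 and 19.2 CPM with BRM014 and 6.595 and 4.56 CPM with DMSO in KELLY, and 14.7 and 5.62 CPM with BRM014 and 0.735 and 5.49 CPM with DMSO in IMR-32, in neither case past the test (1.64, adjusted p = 0.0745; 1.76, adjusted p = 0.160). CDH2 had 288 and 235 CPM with BRM014 and 214 and 174 CPM with DMSO, and rose by 0.43 (SE 0.14, adjusted p = 0.0229, edgeR). That call was lost without SK-N-DZ BRM014 replicate 1 (0.28, adjusted p = 0.346) or SK-N-DZ DMSO replicate 2 (0.29, adjusted p = 0.315). CDH24 had 19.9 and 17.7 CPM with BRM014 and 98.2 and 84.3 CPM with DMSO, and fell by 2.27 (SE 0.41, adjusted p = 8.25e-06, edgeR).
Of the delta protocadherins, PCDH7 (chr4:30720415-31146805), known to bind protein phosphatase 1 through its tail, had 55.8 and 74.5 CPM with BRM014, against 8.38 and 9.36 CPM with DMSO. It rose by 2.86 (SE 0.56, adjusted p = 3.84e-05, edgeR). PCDH17 had 53.2 and 88.4 CPM with BRM014 and 32.3 and 41.3 CPM with DMSO, and rose by 0.94 (SE 0.34, adjusted p = 0.0354, edgeR). The PCDH17 call did not hold without SK-N-DZ BRM014 replicate 2 (0.53, adjusted p = 0.4696), SK-N-DZ DMSO replicate 1 (adjusted p = 0.2101) or SK-N-DZ DMSO replicate 2 (adjusted p = 0.0621), or after the length trend (0.88, adjusted p = 0.0511, edgeR). PCDH10, which recruits the WAVE complex, had 5 and 15 counts with BRM014 and 2 and 0 with DMSO, a ratio of 22.6 (exact 95% interval 5.48 to 199). Its adjusted p was 0.00360 (edgeR), and 0.124 without SK-N-DZ BRM014 replicate 2 and 0.0918 without SK-N-DZ DMSO replicate 2.
PCDH19 and PCDH18 were barely counted in SK-N-DZ. PCDH19 had 1 and 0 counts with BRM014 and 0 and 0 with DMSO, and PCDH18 had 0 and 0 with BRM014 and 0 and 1 with DMSO. Among the others not called, PCDH1 had 102 and 82.1 CPM with BRM014 and 82.1 and 95.3 CPM with DMSO, FAT3 had 116 and 89.7 CPM with BRM014 and 83.2 and 83.7 CPM with DMSO, and PCDH9 had 81.1 and 85.9 CPM with BRM014 and 61.7 and 62.8 CPM with DMSO. CDH11 had 116 and 53.0 CPM with BRM014 and 72.5 and 81.5 CPM with DMSO. PCDH20 had 17 and 15 counts with BRM014 and 10 and 6 with DMSO (2.14, adjusted p = 0.103), and would be called in a fit of the 4 SK-N-DZ libraries alone (adjusted p = 0.0162, edgeR).

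In IMR-32, 3 of the 24 genes rose and 1 fell with BRM014, against 6.26% and 6.57% of all genes tested. The median log2 fold change was 0.24, against -0.02 over all genes. It was 0.34 without DCHS2, PCDH7 and PCDH15, which had at most 3 counts in each group. The median of all 24 depended on single libraries: it was -0.07 without IMR-32 BRM014 replicate 2 and 0.51 without replicate 1. After a trend on gene length and T content was taken out it was 0.11, against 0.02 over all genes. The summed level was 1161 ± 22.9 CPM with BRM014 and 777 ± 7.401 CPM with DMSO (SD, n = 2 each).
FAT1, a giant cadherin known in humans as a tumour suppressor of squamous cancers, carried most of that difference. It had 401 and 382 CPM in IMR-32 BRM014 libraries, against 129 and 146 CPM in IMR-32 DMSO libraries, and rose by 1.51 (SE 0.18, adjusted p = 1.28e-10, edgeR). In SK-N-DZ it fell and in KELLY, at 120 and 132 CPM with BRM014 and 107 and 113 CPM with DMSO, it was not called (0.20, adjusted p = 0.580). The difference among lines had an adjusted p of 7.00e-11 (edgeR). FAT1 was the single gene of the 24 called in opposite directions in different lines, a count that was not made over all genes. Its fall in SK-N-DZ was not called without SK-N-DZ BRM014 replicate 2 (-0.63).
CDH2 had 292 and 303 CPM with BRM014 and 199 and 180 CPM with DMSO, and rose by 0.65 (SE 0.15, adjusted p = 0.000819, edgeR). FAT4 had 35.4 and 56.2 CPM with BRM014 and 11.03 and 21.05 CPM with DMSO, and rose by 1.54 (SE 0.40, adjusted p = 0.00372, edgeR). FAT4 was no longer called without IMR-32 BRM014 replicate 2 (1.17, adjusted p = 0.149) or IMR-32 DMSO replicate 1 (1.12, adjusted p = 0.152). CDH24 had 0 and 1 counts with BRM014 and 30 and 15 with DMSO, 25.5-fold fewer with BRM014 per library size (exact 95% interval 4.35 to 1030), and its adjusted p was 0.000172 (edgeR).
Several genes came close without passing. CELSR2, a planar polarity cadherin, had 73.7 and 60.4 CPM with BRM014 and 35.3 and 39.4 CPM with DMSO (0.85, adjusted p = 0.0607, edgeR), and was called with DESeq2 (0.87, adjusted p = 0.0381). PCDH1 had 19.2 and 21.1 CPM with BRM014 and 5.15 and 11.9 CPM with DMSO (1.28, adjusted p = 0.0768). DCHS1 had 105 and 101 CPM with BRM014 and 151 and 136 CPM with DMSO (-0.48, adjusted p = 0.0823), and crossed the threshold after the length trend (-0.55, adjusted p = 0.0427) and with unscaled library totals (-0.53, adjusted p = 0.0489), but was at -0.0607 with an adjusted p of 0.908 after the trend on length and T content. PCDH8, the synaptic arcadlin of rat, had 33.9 and 42.1 CPM with BRM014 and 22.1 and 9.15 CPM with DMSO (1.26, adjusted p = 0.256, edgeR). PCDH19, PCDH18 and CDH7, which rose in KELLY, were not called: PCDH19 had 16.2 and 37.9 CPM with BRM014 and 24.3 and 19.2 CPM with DMSO, PCDH18 had 11.8 and 8.43 CPM with BRM014 and 19.1 and 17.4 CPM with DMSO, and CDH7 had 20.6 and 23.9 CPM with BRM014 and 40.4 and 32.9 CPM with DMSO.

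**Figure D3:**
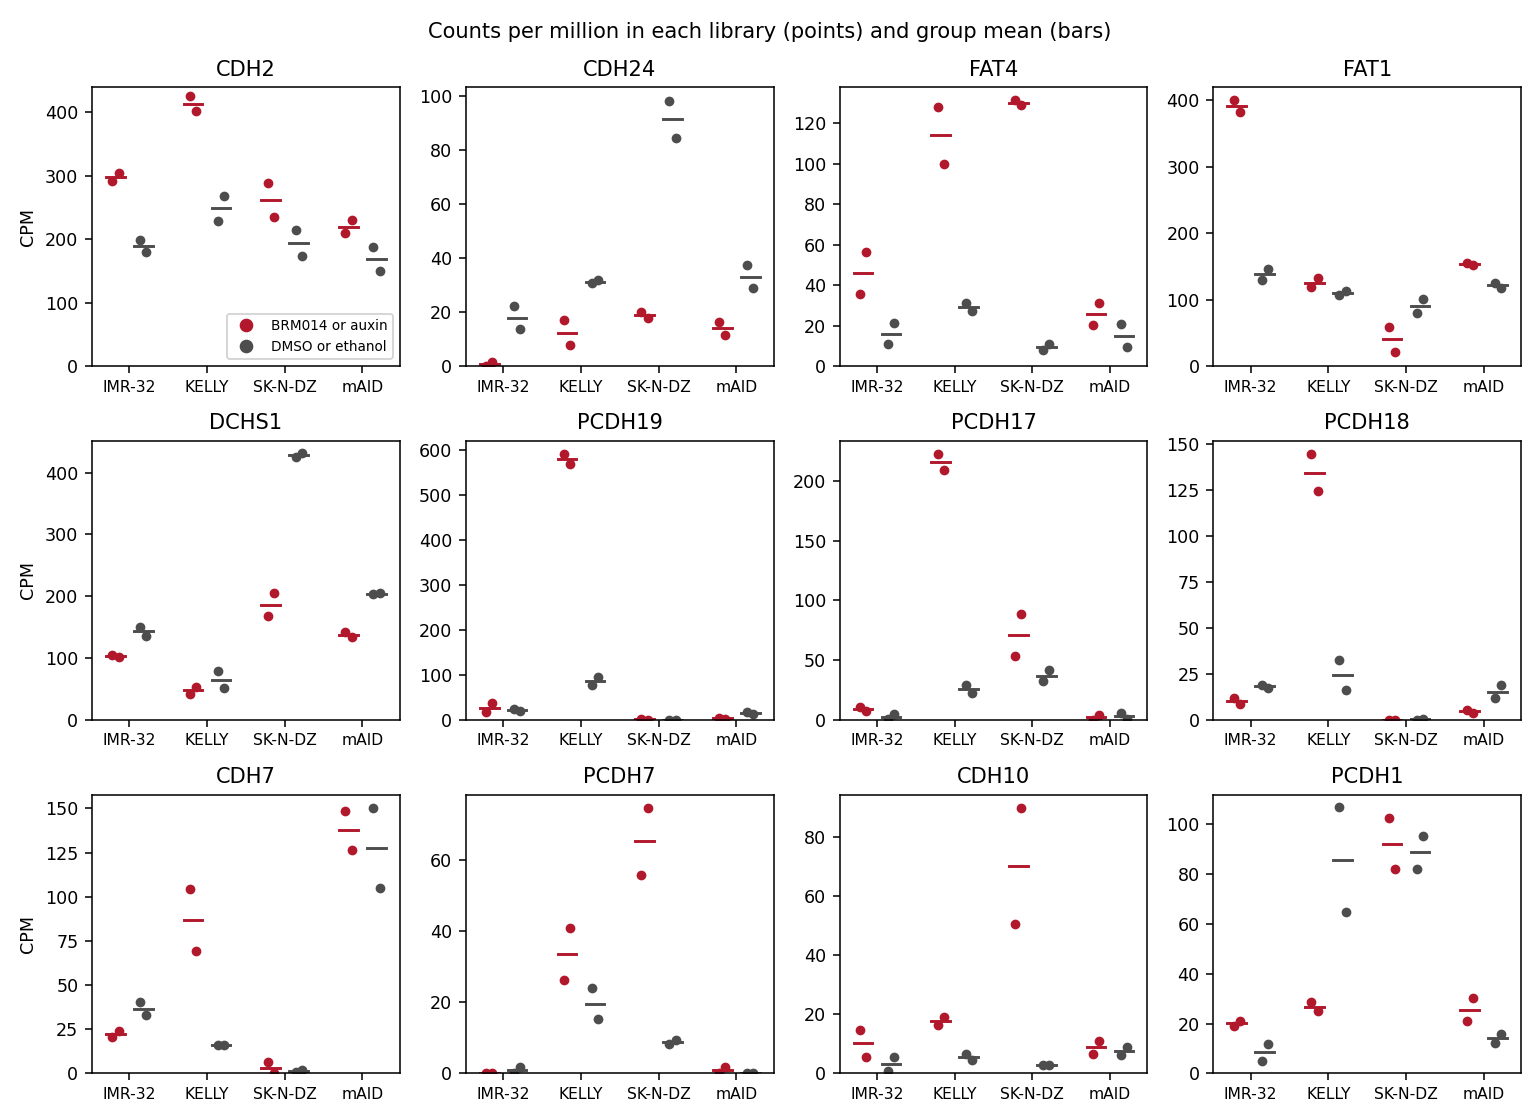
CPM of 12 genes in each library (points, 2 a group) with the group mean (short bars), treated in red to the left of vehicle in grey, for IMR-32, KELLY, SK-N-DZ and IMR-32 SMARCA4-mAID (mAID) cells. CDH24 is lower with BRM014 in all 3 unedited lines, FAT4 higher, and PCDH19, PCDH17 and PCDH18 stand highest in KELLY BRM014 libraries; each panel has its own axis from 0.

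The calls of the 3 lines were set side by side, and sharing of calls was not counted over all genes. CDH2 and FAT4 were called higher in all 3 lines and CDH24 lower in all 3. Each lost its call in 1 line when a single library was left out. The log2 change was then as small as 0.28 for CDH2 in SK-N-DZ, 1.12 for FAT4 in IMR-32 and -0.87 for CDH24 in KELLY. PCDH17 rose in KELLY and, less firmly, in SK-N-DZ (0.53 without SK-N-DZ BRM014 replicate 2, not called). FAT1 was called in opposite directions, and 10 genes were called in a single line. In all, 15 of the 24 genes were called in at least 1 of the 4 treatment comparisons, against 29.7% of all genes tested. They had 25 calls together. The response itself differed among the lines for 8 genes of 24, against 6.47% of all genes, by the edgeR test of the difference. These were FAT1 and FAT4, named above, and CDH7 (adjusted p = 1.01e-05), PCDH19 (2.25e-05), PCDH1 (0.000146), PCDH18 (0.000367), PCDH17 (0.00336) and FAT3 (0.0474). For CDH2 (adjusted p = 0.631) and CDH24 (adjusted p = 0.173) no difference among lines was found, which does not show that the lines respond alike. The same holds for CDH10 (0.0580), DCHS1 (0.0587), PCDH7 (0.0676) and PCDH9 (0.588), and for PCDH10, which was not among those 8 genes. Their calls in 1 line are therefore not shown to be particular to it.
PCDH8, PCDH17, PCDH20 and PCDH9 lie in that order within 14.4 Mb of chromosome 13, and PCDH17 and PCDH9 rose in KELLY while PCDH8 and PCDH20 were not called. Of the 8 members on chromosome 16 CDH11 alone was tested, and it was called in none of the treatment comparisons. The tested genes are long, with a median of 9252 bases of exon against 3870 over all tested genes with a length, and their T content was 27.0% against 25.8%, which matters because 4sU is incorporated in place of uridine. Where taking out a trend on these properties changed a call in a treatment comparison, it is stated beside the gene, here or below, except that PCDH1 passed in IMR-32 (1.79, adjusted p = 0.00845), CELSR2 passed in IMR-32 (1.22, adjusted p = 0.00378) and DCHS1 passed in KELLY (-0.69, adjusted p = 0.0137, length alone).
Reads of some members could belong to a neighbour. Exons of 14 of the 43 genes overlap those of another annotated gene, among them CDH2, CDH11, DCHS1, PCDH9, PCDH17 and PCDH20, mostly antisense genes. The sources used here do not give the strand setting of the authors' counting, so such reads cannot be told apart.

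The degron line had fewer calls. With auxin in SMARCA4-mAID cells none of the 24 genes rose and 2 fell, against 1.03% and 1.16% of all genes tested. The median log2 fold change was -0.13, and that over all genes was 0. It was -0.27 without DCHS2, PCDH7 and PCDH15, which had at most 3 counts in each group. The median of all 24 was 0.00854 without SMARCA4-mAID ethanol replicate 1 and -0.18 without SMARCA4-mAID auxin replicate 2. The summed level was 940.3 ± 13.4 CPM with auxin and 947 ± 91.2 CPM with ethanol (SD, n = 2 each).
PCDH19 had 4.49 and 2.58 CPM (6 and 4 counts) in auxin libraries, against 17.9 and 13.2 CPM (26 and 21 counts) in ethanol libraries, and fell by 2.13 (SE 0.48, adjusted p = 0.00325, edgeR). DCHS1 had 141 and 133 CPM with auxin and 203 and 205 CPM with ethanol, and fell by 0.57 (SE 0.16, adjusted p = 0.0322, edgeR). Neither group pair overlapped. The DCHS1 call was lost when any 1 of the 4 SMARCA4-mAID libraries was left out (adjusted p from 0.138 to 0.291) and after the trend on length and T content (-0.39, adjusted p = 0.253). The PCDH19 call was lost without SMARCA4-mAID auxin replicate 2 (-1.76, adjusted p = 0.171), without SMARCA4-mAID ethanol replicate 1 (-1.90, adjusted p = 0.0842), or in a fit of those 4 libraries alone (-2.13, adjusted p = 0.0534).
The other genes were not called. CELSR2 had 37.4 and 34.1 CPM with auxin and 53.7 and 40.2 CPM with ethanol. PCDH18 had 5.23 and 3.86 CPM with auxin and 11.7 and 18.9 CPM with ethanol (-1.75, adjusted p = 0.0637), and passed after the trend on length and T content (-1.80, adjusted p = 0.0482). CDH24 had 16.4 and 11.6 CPM with auxin and 37.2 and 28.9 CPM with ethanol (-1.24, adjusted p = 0.0985), and passed in a fit of the 4 libraries alone (adjusted p = 0.0481). CDH2 had 209 and 230 CPM with auxin and 187 and 149 CPM with ethanol (0.39, adjusted p = 0.159). FAT1 had 156 and 152 CPM with auxin and 125 and 118 CPM with ethanol (0.34, adjusted p = 0.470, edgeR). PCDH1 had 20.9 and 30.3 CPM with auxin and 12.4 and 15.7 CPM with ethanol (0.86, adjusted p = 0.308), and PCDH8 had 7.48 and 3.86 CPM with auxin and 13.8 and 19.5 CPM with ethanol (-1.56, adjusted p = 0.399). FAT4 had 20.2 and 30.9 CPM with auxin and 20.7 and 9.43 CPM with ethanol, overlapping (0.79, adjusted p = 0.396, edgeR).

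The inhibitor and the degron were compared directly by subtracting the effect of auxin in SMARCA4-mAID cells from that of BRM014 in IMR-32, 2 effects that share no libraries. The difference was positive for 2 genes and negative for none, against 1.06% and 0.887% of all genes. FAT1 differed by 1.17 (SE 0.25, adjusted p = 0.00240, edgeR), with 1.51 under BRM014 and 0.34 under auxin. PCDH19 differed by 2.44 (SE 0.61, adjusted p = 0.0137, edgeR), with 0.31 under BRM014 and -2.13 under auxin. The PCDH19 difference was not called without IMR-32 BRM014 replicate 2 (1.70, adjusted p = 0.315), IMR-32 DMSO replicate 2 (2.30, adjusted p = 0.0562), SMARCA4-mAID ethanol replicate 1 (2.21, adjusted p = 0.0938) or SMARCA4-mAID auxin replicate 2 (2.08, adjusted p = 0.143). Agent, genotype and vehicle differ together here and cannot be told apart.

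**Figure D4:**
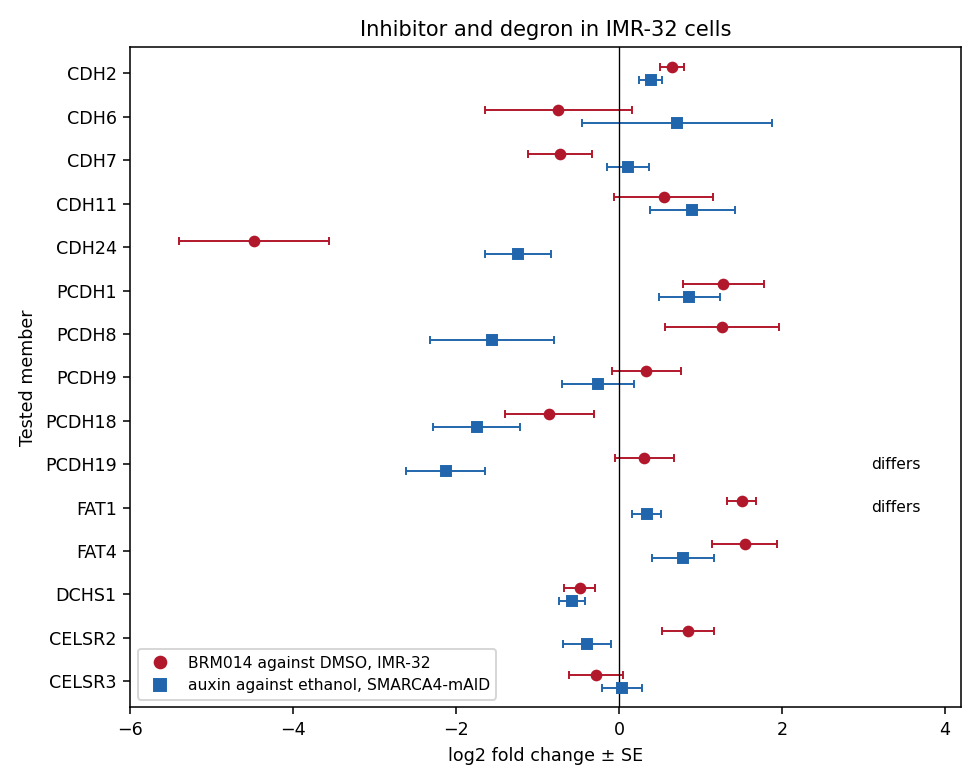
Log2 fold change with its standard error under BRM014 against DMSO in IMR-32 (red circles) and under auxin against ethanol in SMARCA4-mAID cells (blue squares), for the 15 tested genes with a mean of at least 20 counts a library in 1 of those 4 groups. FAT1 and PCDH19, marked "differs", are those whose effects differed in the direct test.

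Vehicle-treated lines differed in which of these genes they express. CDH2 led in each, at 43.6 CPM per kb of exon in SK-N-DZ, 55.9 in KELLY, 37.8 in ethanol-treated SMARCA4-mAID cells and 42.6 in IMR-32. Next came DCHS1 (39.8 CPM per kb) and CDH24 (25.7) in SK-N-DZ, PCDH1 (15.8) and CDH11 (11.9) in KELLY, DCHS1 (18.96) and CELSR3 (9.34) in SMARCA4-mAID cells, and DCHS1 (13.3) and FAT1 (9.32) in IMR-32. The comparisons of lines below share vehicle libraries with each other and with the treatment comparisons, so they are not independent of them.
KELLY against IMR-32, both with DMSO, had 9 of the 24 genes higher and 4 lower, against 18.1% and 21.6% of all genes. SK-N-DZ against IMR-32 had 9 higher and 6 lower, against 21.2% and 22.9%. SK-N-DZ against KELLY had 3 higher and 7 lower, against 16.6% and 15.2%. Across all genes the lines thus also differed widely.
For DCHS1 all 3 lines differed from each other. It had 426 and 432 CPM in SK-N-DZ, 78.5 and 51.7 CPM in KELLY and 151 and 136 CPM in IMR-32. SK-N-DZ stood above KELLY by 2.70 (SE 0.17, adjusted p = 1.13e-25) and above IMR-32 by 1.58 (SE 0.16, adjusted p = 9.21e-15), and KELLY stood below IMR-32 (-1.12, SE 0.18, adjusted p = 1.98e-07, edgeR). After the trend on length and T content, SK-N-DZ stood above IMR-32 by 0.75 (adjusted p = 3.57e-05). For CDH24, the difference between KELLY (30.6 and 31.9 CPM) and IMR-32 (22.1 and 13.7 CPM) was not called (0.78, adjusted p = 0.119, edgeR), though their libraries did not overlap. SK-N-DZ (98.2 and 84.3 CPM) stood above KELLY by 1.54 (SE 0.36, adjusted p = 0.000289) and above IMR-32 by 2.33 (SE 0.38, adjusted p = 3.54e-07, edgeR). Those differences of CDH24 were 1.01 from KELLY (adjusted p = 0.0211) and 1.21 from IMR-32 (adjusted p = 0.00948) after the same trend. CDH2 was higher in KELLY than in IMR-32 by 0.38 (SE 0.14, adjusted p = 0.0228) and lower in SK-N-DZ than in KELLY (-0.36, SE 0.14, adjusted p = 0.0372, edgeR). Between SK-N-DZ and IMR-32 it was not called (0.03, adjusted p = 0.889, edgeR). Both CDH2 calls were lost without KELLY DMSO replicate 2 (0.27, adjusted p = 0.225 against IMR-32, and -0.24, adjusted p = 0.326 for SK-N-DZ against KELLY), the first also without IMR-32 DMSO replicate 2 (adjusted p = 0.164) and the second without SK-N-DZ DMSO replicate 2 (adjusted p = 0.405). After the trend on length and T content CDH2 was higher in KELLY than in IMR-32 by 0.63.
PCDH19 had no count in the SK-N-DZ DMSO libraries, 129 and 125 counts in KELLY and 33 and 21 in IMR-32, at least 98.9-fold lower in SK-N-DZ than in KELLY and at least 25.6-fold lower than in IMR-32, taking 3 counts over the group as the floor. KELLY stood above IMR-32 by 1.96 (SE 0.27, adjusted p = 2.25e-09, edgeR). PCDH18 had 0 and 1 counts in SK-N-DZ, 54 and 21 in KELLY and 26 and 19 in IMR-32. The difference of PCDH18 between KELLY and IMR-32 was not called (0.42, adjusted p = 0.456, edgeR). SK-N-DZ was lower than each (ratio to KELLY 87.6, exact 95% interval 15.3 to 3507, and to IMR-32 63.9, 10.9 to 2581).
PCDH1, CDH11 and PCDH17 were high in both SK-N-DZ and KELLY. PCDH1 had 82.1 and 95.3 CPM in SK-N-DZ, 107 and 64.7 CPM in KELLY and 5.15 and 11.9 CPM in IMR-32, CDH11 had 72.5 and 81.5 CPM in SK-N-DZ, 71.3 and 96.6 CPM in KELLY and 10.3 and 9.15 CPM in IMR-32, and PCDH17 had 32.3 and 41.3 CPM in SK-N-DZ, 29.4 and 22.1 CPM in KELLY and 0.735 and 4.58 CPM in IMR-32. Each was higher in SK-N-DZ than in IMR-32 (log2 3.41, 2.97 and 3.85, adjusted p = 1.81e-12, 2.37e-08 and 4.75e-09, edgeR) and in KELLY than in IMR-32 (3.37, 3.09 and 3.35). None was called between SK-N-DZ and KELLY (adjusted p = 0.938, 0.832 and 0.281, edgeR). The size of the PCDH17 and PCDH1 differences rested on the IMR-32 libraries. Without IMR-32 DMSO replicate 1 and without replicate 2, PCDH17 was higher in SK-N-DZ by 2.99 and 5.48 and in KELLY by 2.48 and 4.97, and PCDH1 was higher in SK-N-DZ by 2.89 and 4.08 and in KELLY by 2.85 and 4.04, all called. PCDH9 had 61.7 and 62.8 CPM in SK-N-DZ, 66.0 and 51.0 CPM in KELLY and 12.5 and 28.4 CPM in IMR-32. It was higher than in IMR-32 in SK-N-DZ (1.64, adjusted p = 4.99e-05) and KELLY (1.56, adjusted p = 0.000158, edgeR), and the KELLY call was lost without IMR-32 DMSO replicate 1 (1.05, adjusted p = 0.0503). PCDH7 had 14 and 17 counts in SK-N-DZ, 40 and 20 in KELLY and 0 and 2 in IMR-32. Between SK-N-DZ and KELLY it was not called (adjusted p = 0.113, edgeR), though their libraries did not overlap. Its higher level in SK-N-DZ than in IMR-32 (adjusted p = 0.00265) was not called without IMR-32 DMSO replicate 1 (adjusted p = 0.0991, edgeR).
FAT3 was highest in SK-N-DZ, at 83.2 and 83.7 CPM, against 27.6 and 22.1 CPM in KELLY and 11.03 and 14.6 CPM in IMR-32. Between KELLY and IMR-32 FAT3 was not called (0.97, adjusted p = 0.0554, edgeR), though their libraries did not overlap. There 6 alternative settings, DESeq2 among them (1.01, adjusted p = 0.0423), called FAT3. FAT4 was lower in SK-N-DZ than in KELLY (-1.63, SE 0.39, adjusted p = 0.000535, edgeR). Between KELLY and IMR-32 FAT4 was not called (0.90, adjusted p = 0.0537, edgeR). Of 13 alternative settings 5 did not call it there either, and DESeq2 was among those that did (0.93, adjusted p = 0.0474). CDH7 was lowest in SK-N-DZ (1 and 4 counts), then KELLY (27 and 21), then IMR-32 (55 and 36), with all 3 pairs called. The call of CDH7 for KELLY against IMR-32 (-1.19, adjusted p = 0.00471) was lost without IMR-32 DMSO replicate 1 (adjusted p = 0.0738) and after the trend on length (-0.82, adjusted p = 0.0596) or on length and T content (-0.69, adjusted p = 0.121, edgeR). PCDH8 and CDH6 were highest in IMR-32: PCDH8 had 2 and 0 counts in SK-N-DZ, 6 and 1 in KELLY and 30 and 10 in IMR-32, and CDH6, a type II cadherin known from chick neural crest, had 7 and 12 counts in SK-N-DZ, 0 and 2 in KELLY and 22 and 22 in IMR-32. The PCDH8 call for KELLY against IMR-32 was lost without IMR-32 DMSO replicate 1 (adjusted p = 0.182) or KELLY DMSO replicate 2 (adjusted p = 0.0973, edgeR). CDH6 in SK-N-DZ was not called against either line (adjusted p = 0.0709 and 0.108). DCHS2 was counted in KELLY (12 and 15) and hardly in SK-N-DZ (0 and 7), with none in IMR-32. CELSR2 and CELSR3, which pattern axon tracts in mouse, varied less. CELSR2 had 60.5 and 81.0 CPM in SK-N-DZ, 51.6 and 45.6 CPM in KELLY and 35.3 and 39.4 CPM in IMR-32, and CELSR3 had 21.0 and 27.5 CPM in SK-N-DZ, 45.0 and 39.6 CPM in KELLY and 42.6 and 44.8 CPM in IMR-32. SK-N-DZ differed from IMR-32 for both (CELSR2 0.93, adjusted p = 0.00629; CELSR3 -0.84, adjusted p = 0.0193, edgeR). The CELSR2 call was lost without IMR-32 DMSO replicate 1 (adjusted p = 0.0675) or SK-N-DZ DMSO replicate 2 (0.70, adjusted p = 0.125), and after the trend on length and T content (0.27, adjusted p = 0.503). The CELSR3 call was lost without any 1 of IMR-32 DMSO replicate 1, IMR-32 DMSO replicate 2 and SK-N-DZ DMSO replicate 1 (adjusted p from 0.0610 to 0.157), with unscaled library totals (-0.70, adjusted p = 0.0562) and after the length trend (-0.54, adjusted p = 0.148), but was held after the trend on length and T content (-1.58, adjusted p = 1.26e-05, edgeR).
PCDH12, PCDH15 and PCDH20 stayed at 16, 22 and 17 counts or fewer in each library. PCDH10 had 2 and 0 counts in SK-N-DZ, 20 and 13 in KELLY and 0 and 2 in IMR-32, and 22 and 20 in KELLY BRM014 libraries.

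**Figure D5:**
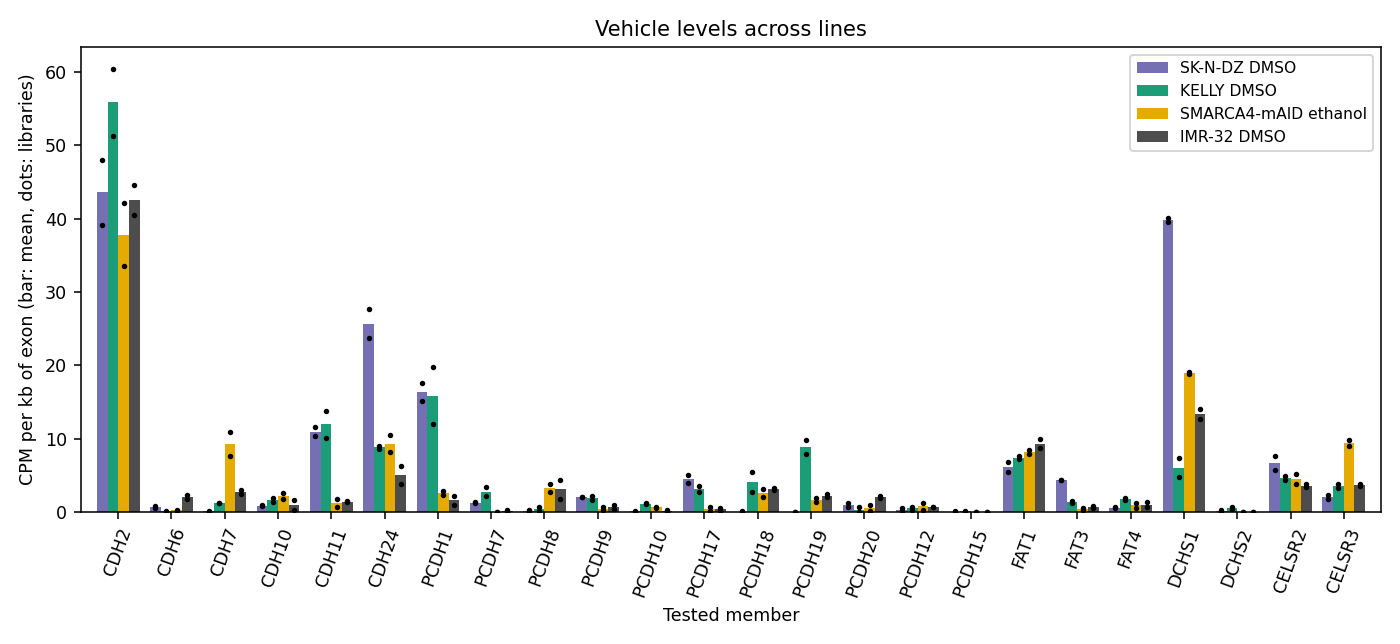
Level of the 24 tested genes in vehicle-treated cells, in CPM per kb of exon (bars, group means; dots, libraries), for SK-N-DZ, KELLY, ethanol-treated SMARCA4-mAID and IMR-32 cells. CDH2 is high in all 4, and DCHS1 and CDH24 stand out in SK-N-DZ.

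The engineered line was also set against its parent. Ethanol-treated SMARCA4-mAID cells had 3 genes higher and 1 lower than DMSO-treated IMR-32 cells, against 2.67% and 3.49% of all genes. CDH7 had 150 and 105 CPM in SMARCA4-mAID cells and 40.4 and 32.9 CPM in IMR-32 (1.79, SE 0.29, adjusted p = 3.79e-06, edgeR). CELSR3 had 116 and 107 CPM in SMARCA4-mAID cells and 42.6 and 44.8 CPM in IMR-32 (1.35, SE 0.27, adjusted p = 0.000250, edgeR). DCHS1 was higher by 0.50 (SE 0.16, adjusted p = 0.0434), and CDH6 had 4 and 1 counts in SMARCA4-mAID cells and 22 and 22 in IMR-32 (-3.37, SE 1.03, adjusted p = 0.0300, edgeR). The calls of DCHS1 (adjusted p from 0.132 to 0.3003) and CDH6 (0.0752 to 0.341) were lost when any 1 of the 4 libraries was left out. Genotype and vehicle cannot be told apart in this comparison. Neither CDH7 nor CELSR3 was called with auxin: CDH7 had 149 and 126 CPM with auxin and 150 and 105 CPM with ethanol (0.11, adjusted p = 0.958), and CELSR3 had 112 and 117 CPM with auxin and 116 and 107 CPM with ethanol (0.04, adjusted p = 0.998, edgeR).

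Partners and relatives of these proteins were counted in lists chosen by function, with calls from the same edgeR fit. Each list's counts stand against the shares of all tested genes. For KELLY 6.57% were called higher and 4.98% lower, for SK-N-DZ 9.88% higher and 9.55% lower, for IMR-32 6.26% higher and 6.57% lower, and for auxin 1.03% higher and 1.16% lower. Of 21 tested catenins and adherens junction partners, KELLY had 1 higher and 2 lower, SK-N-DZ 4 and 4, IMR-32 1 and 3, and auxin 0 and 1. Their median log2 fold changes, in that order, were -0.11, -0.56, 0.09 and -0.24. NECTIN1, an immunoglobulin-like junction protein, fell in KELLY (-2.22), SK-N-DZ (-1.62) and IMR-32 (-1.12). ARVCF, a p120 family catenin, fell in KELLY (-2.26, adjusted p = 3.20e-05) and SK-N-DZ (-2.01, adjusted p = 0.000184), and the neural alpha-catenin CTNNA2 rose in both (1.10, adjusted p = 0.0449 and 1.46, adjusted p = 0.00881). CTNNB1, the beta-catenin that binds classical cadherin tails, rose in IMR-32 by 0.38 (SE 0.10, adjusted p = 0.00627), and CTNND2 fell with auxin (-2.13, adjusted p = 0.0270, edgeR).
Of 7 tested genes of cadherin cleavage and turnover, KELLY had 1 higher and 0 lower, SK-N-DZ 2 and 1, IMR-32 0 and 1, and auxin 0 and 0, with medians of 0.48, 0.11, 0.32 and -0.02. ADAM10, the protease that sheds N-cadherin, rose in KELLY by 0.61 (SE 0.16, adjusted p = 0.00419), and MMP15 fell in SK-N-DZ (-2.39) and IMR-32 (-2.27, edgeR).
Of 7 tested cadherin repressors and switch regulators, KELLY had 2 higher and 0 lower, SK-N-DZ 2 and 2, IMR-32 1 and 5, and auxin 0 and 1, with medians of 0.25, -0.12, -0.73 and -0.20. TCF4 rose in KELLY (0.41), SK-N-DZ (0.33) and IMR-32 (0.66). ZEB1 fell in IMR-32 (-0.75) and with auxin (-0.51), and ZEB2 rose in SK-N-DZ (2.10) and fell in IMR-32 (-1.65). TWIST1 rose in KELLY (1.41, SE 0.14, adjusted p = 4.33e-14, edgeR) and also belongs to the mesenchymal marker list above.
Of 26 tested planar polarity and FAT-DCHS pathway genes, KELLY had 7 higher and 0 lower, SK-N-DZ 6 and 2, IMR-32 6 and 1, and auxin 2 and 0, with medians of 0.26, 0.00435, 0.08 and -0.000960. The polarity receptor FZD3 rose in KELLY (0.89), SK-N-DZ (0.98) and IMR-32 (0.77), and the kinase TAOK1 rose in KELLY (0.45), SK-N-DZ (0.81) and IMR-32 (0.48). PRICKLE1 rose in KELLY (1.49) and SK-N-DZ (1.79). TEAD1, the DNA-binding partner of YAP1, rose in KELLY (0.62), IMR-32 (0.75) and with auxin (0.67, edgeR).
Of 12 WAVE complex and delta protocadherin partners, KELLY had 1 higher and 0 lower, SK-N-DZ 3 and 2, IMR-32 1 and 0, and auxin 0 and 0, with medians of 0.24, 0.05, 0.20 and 0.09. The actin regulator WASF1 rose in KELLY (0.54), SK-N-DZ (1.00) and IMR-32 (0.77, edgeR).
Of the 57 clustered protocadherins, relatives outside the rule, 35 were tested. KELLY had 2 higher and 1 lower, SK-N-DZ 1 and 2, IMR-32 0 and 1, and auxin 0 and 0, with medians of -0.05, -0.13, -0.18 and 0.06. Their loci share exons and near-identical copies, so reads can be split between them. Of 8 tested desmosomal cadherins, calsyntenins and CDHR genes, CDHR1 alone was called, lower in SK-N-DZ (-4.74, adjusted p = 0.00201, edgeR), with medians of -0.25, -0.17, -0.12 and 0. None of these list medians was tested against other genes.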

How the data were processed

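The labels describe metabolic labelling with 4sU for 2 h, thiol modification with iodoacetate, poly(dT) capture and size selection, which favours polyadenylated RNA made in that window. The authors deposited 1 table of raw conversion counts per library; HISAT, HTSeq, DESeq2 and hg38 appear in the submitters' processing notes, without versions. The sources used here do not give the counting rule, the annotation or the strand setting. Summary lines at the end of each table (46.4% to 57.4% of counts without a feature, 1.11% to 1.71% ambiguous) were kept out. Deposited counts of the 16 labelled libraries were fitted together in R 4.3.3 with edgeR 4.0.16 (TMM scaling, filterByExpr leaving 12853 genes, 8 group means, 8 residual degrees of freedom, quasi-likelihood test, Benjamini-Hochberg adjusted p below 0.05). The scripts were tested on simulated data. DESeq2 1.42.0, other scalings and filters, 2-group fits, a replicate block, a gene length trend and leaving out each library were alternatives; a trend on length and T content was added after seeing the data. Trends used GENCODE v29 exon lengths, at hand for all 24 tested members.

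CPM are counts per 1e6 counts in genes after TMM scaling. Whether the 2 libraries of a group are separate cultures is not in the labels: p-values reflect the variation of these libraries only, and that may be technical. Intervals and floors cover counting error only. Replicate libraries differed by more than sampling noise (chi-square per degree of freedom 2.36 to 3.31). The members and lists, including the markers, were chosen with earlier results of these data known. Members were described by library where called in a treatment comparison or averaging at least 20 counts a library in 1 labelled group. Not every group or comparison of such a member is given. Other list genes were named from the called ones of smallest p, up to 4 a list. PCDH15, PCDH20 and CDH13 fall outside that rule and were chosen after their values were seen.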

Additional observations from a re-analysis of the deposited data

Results flagged for a closer look

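The BRM014 effect differed among KELLY, SK-N-DZ and IMR-32 for 8 of the 24 tested genes, by the edgeR test of the difference with adjustment over all genes. The adjusted p was 7e-11 for FAT1 (log2 0.20 in KELLY, -1.19 in SK-N-DZ and 1.51 in IMR-32) and 1.01e-05 for CDH7 (2.42, 1.13 and -0.72 in the same order). It was 2.25e-05 for PCDH19 and 0.000367 for PCDH18, both at 1 count or fewer in each SK-N-DZ library. It was 0.000146 for PCDH1 (-1.68, 0.05 and 1.28) and 0.00336 for PCDH17 (3.05, 0.94 and 1.77). It was 0.00392 for FAT4 (1.95, 3.77 and 1.54) and 0.0474 for FAT3 (1.77, 0.30 and 0.17). The CDH7 value of 1.13 in SK-N-DZ rests on 5 and 0 counts with BRM014 and 1 and 4 with DMSO. The PCDH17 value of 1.77 in IMR-32 rests on 7 and 5 counts with BRM014 and 1 and 5 with DMSO. Neither is to be read as a fold.

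The BRM014 effect in IMR-32 also differed from the auxin effect in SMARCA4-mAID cells for FAT1, by 1.17 (log2, SE 0.25, adjusted p = 0.00240, edgeR), and for PCDH19, by 2.44 (SE 0.61, adjusted p = 0.0137, edgeR).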

How the results depend on the processing

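Counts of called members stayed within 1.5 times the reported ones under every setting that kept all libraries. With 1 library left out at a time they ranged from 3 to 5 in IMR-32, 8 to 10 in KELLY, 6 to 8 in SK-N-DZ and 0 to 1 with auxin (0 without SMARCA4-mAID ethanol replicate 1 or auxin replicate 2). They ranged from 1 to 2 for IMR-32 minus auxin, 6 to 9 for the difference among lines, 9 to 14 for KELLY against IMR-32, 12 to 14 for SK-N-DZ against IMR-32, 9 to 9 for SK-N-DZ against KELLY and 2 to 2 for SMARCA4-mAID against IMR-32. No gene result that was called in at least 1 setting reversed its direction, and genes called in no setting were not checked for this. The median log2 fold change of the tested members did change sign. It was -0.07 in IMR-32 without IMR-32 BRM014 replicate 2, and 0.00854 with auxin without SMARCA4-mAID ethanol replicate 1. Of 360 values with a library left out, 54 lost and 7 gained a call. Of 88 values with the replicate block, 87 kept their side of the threshold, and FAT4 in KELLY against IMR-32 gained a call (0.91, adjusted p = 0.0488, edgeR). Same-numbered libraries did not deviate together (correlations 0.0057, -0.0415, 0.0185 and -0.0167 in IMR-32, KELLY, SK-N-DZ and SMARCA4-mAID), so the numbers were not taken as pairs. Of 86 values with DESeq2, 1 lost its call, DCHS2 in KELLY against IMR-32 (adjusted p = 0.342, DESeq2), and 3 gained one. The values counted here are gene results called in at least 1 setting, not only those called in the main fit. The gene length trend moved the split over all genes to 1011 higher and 664 lower in IMR-32, against 805 and 845, and to 1510 and 998 in SK-N-DZ, against 1270 and 1228.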
